A study of Mus musculus with 9 samples.

Results

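Slc24a3, Sned1 and Fam221b are 3 little-studied genes of the 47729 in the count table. They were chosen by their counts, for being higher in Per1 knockout and in Per2 knockout C2C12 cells than in control cells on each of 3 days, and for having little sequence in common with other genes. The gap between knockout and control libraries is therefore how they were chosen, and it is described below without a test. Of the 47729 genes, 13324 reached a level of 1 CPM (counts scaled to equal library totals) in at least 3 libraries and were tested, and all 3 genes were among them, each at 1 CPM or more in 9 of 9 libraries. The condition on sequence held for Slc24a3 on every reading of the sequence, but for Sned1 and Fam221b only where a single strand was read.

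Slc24a3 encodes a membrane exchanger that moves calcium out of the cell against sodium and carries potassium with the calcium. Calcium exchangers and pumps return calcium to resting levels, and in muscle the pumps of the sarcoplasmic reticulum refill the store that triggers contraction. Sned1 encodes a secreted glycoprotein of the extracellular matrix with sushi, nidogen and EGF-like domains, and matrix of this kind is read by integrins at the cell surface. Fam221b is a member of a small family named for its sequence likeness.

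C2C12 is an established line of mouse myoblasts, precursor cells of muscle that can be switched from growth to fusion into myotubes by a change of serum. The control population (WT) received a CRISPR-Cas9 guide RNA without a target, and the other populations (Per1KO and Per2KO) carry a CRISPR-Cas9 knockout of Per1 or of Per2, which encode repressors of the circadian clock. Each population was sampled undifferentiated in 10% fetal bovine serum (day 0) and after 3 and 5 days in 5% horse serum. Each combination of population and day has 1 library, 9 in all. The sources used here do not say how many clones a population came from, and whole muscle is the labelled tissue although the cells were cultured.

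Total counts lay between 5020385 and 6773320 for WT (3 libraries) and between 41997763 and 48051824 for the knockouts (6 libraries), so the shallowest knockout library held 6.20 times the counts of the deepest WT library. A suffix in the form of a lane number stands in the titles of WT alone, and the labels do not say what it marks. The name of the cell line stands in the count columns of the knockouts alone. Depth and whatever these names mark cannot be told apart from genotype when a knockout is set against WT. Per1 stood at 30.9 to 35.5 CPM in WT, 20.8 to 32.4 CPM in Per1KO and 16.4 to 32.9 CPM in Per2KO. Per2 stood at 9.73 to 20.4 CPM in WT, 6.58 to 10.6 CPM in Per1KO and 3.50 to 9.12 CPM in Per2KO, so neither was low in its own knockout alone; whether these counts cover the edited bases is not given. All 10 muscle markers were detected, with a summed level of 4737 to 17704 CPM in WT and 2634 to 13168 CPM in the knockouts. Summed levels of 5 endothelial, 5 leukocyte, 5 adipocyte and 5 Schwann or neural markers stayed under 4 CPM in every library, with Emcn, Adgre1, Adipoq and Lep at 0. The 5 fibroblast markers, led by Ly6a, summed to 451 to 635 CPM in WT and 162 to 523 CPM in the knockouts, and their part in the results was not tested.

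Slc24a3 (ENSMUSG00000063873) lies on the forward strand at chr2:145167754-145642166 of mouse build GRCm38. Its span of 474413 bases is longer than that of 99.1% of the 11741 tested protein-coding genes. None of the 31-base words of its longest transcript (4048 bases) occurred in another gene's longest transcript on either strand. The genes annotated inside it (Gm14093, Gm22731, Gm22390, Gm11759 and Gm14092) held at most 4 counts in any library.

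Sned1 (ENSMUSG00000047793) lies on the forward strand at chr1:93235841-93301065, and its longest transcript has 31 exons and 9147 bases. It shares 0.143% of its 31-base words with other genes on its own strand but 20.0% when both strands are read. The shared words, 1820 of 9112, belong to Mterf4, a mitochondrial protein gene on the opposite strand whose 3′ end overlaps that of Sned1 by 1855 bases. The library kit does not mark strand, so reads from the overlap could belong to either gene. Mterf4 stood at 13.4 to 22.4 CPM in WT and 18.0 to 21.4 CPM in the knockouts, and its fitted log2 difference from WT was 0.10 in Per1KO (edgeR adjusted p = 0.683) and 0.06 in Per2KO (edgeR adjusted p = 0.829). By day, Mterf4 stood 1.35-fold over WT in Per1KO (95% counting interval 1.09 to 1.68) and 1.38-fold in Per2KO (1.12 to 1.73) on day 0, and 0.877-fold to 0.994-fold on days 3 and 5. The log2 levels of Sned1 and Mterf4 had a Pearson r of 0.314 over all 9 libraries and 0.735 over the 6 knockout libraries, as a description of libraries that share days and depth. The part of Mterf4 reads in the Sned1 counts was not tested.

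Fam221b (ENSMUSG00000043633) lies on the reverse strand at chr4:43659622-43669145. Its coding transcript, Fam221b-201, has 7 exons and 2045 bases, and 0% of its 31-base words occur in another gene. Its longest transcript, Fam221b-202, retains an intron, has 3 exons and 3913 bases, and shares 12.03% of its words when both strands are read. Of these words, 437 occur in Serf2, a gene for a small protein on chromosome 2, and they cover 494 bases at chr4:43663920-43664413. A processed pseudogene, Gm12481, sits there on the opposite strand (chr4:43664043-43664339) and holds 89.9% of its words in common with Serf2.

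The start of Gm12481 is shown beside Serf2 because reads from this stretch cannot be placed by sequence alone. Both are given 5′ to 3′ on the forward strand of GRCm38 (chr4:43664043-43664076 and chr2:121450038-121450083), and capitals mark the 34 bases that are identical. Lower case marks Serf2 bases with no chr4 bases shown beside them, and does not mark a difference. The stretch of chr4 shared with Serf2 begins before Gm12481, at 43663920.

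Gm12481: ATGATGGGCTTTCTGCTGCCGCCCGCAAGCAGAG
Serf2: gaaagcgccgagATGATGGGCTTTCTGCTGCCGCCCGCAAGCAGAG

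**Figure D1:**
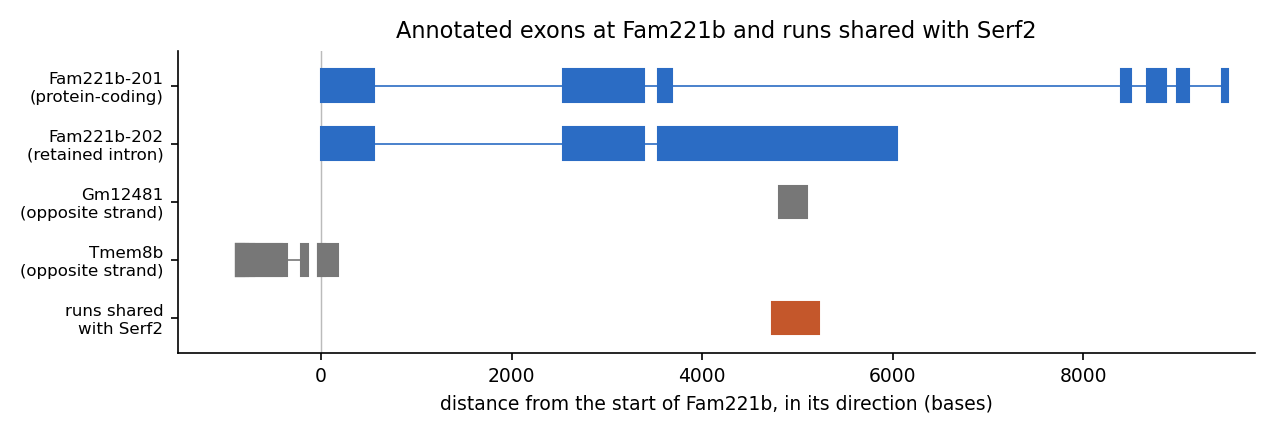
Annotated exons (boxes) at Fam221b against distance from its start in bases, in the direction of Fam221b, with the stretch covered by 31-base words shared with Serf2. The 494 shared bases lie in the retained intron of Fam221b-202, around Gm12481, and outside every exon of Fam221b-201; Tmem8b overlaps the first 175 bases from the opposite strand.

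Gm12481 was listed at 0 counts in all 9 libraries; since all 297 of its bases lie in words shared with Serf2, a 0 sets no limit on its level. Serf2 itself stood at 38.4, 54.1 and 46.3 CPM in WT on days 0, 3 and 5. It stood at 39.6, 77.1 and 78.8 CPM in Per1KO, and at 42.5, 76.1 and 64.3 CPM in Per2KO. On day 0 the 3 populations were close, and on the later days both knockouts were above WT. The fitted log2 difference of Serf2 from WT was 0.44 ± 0.15 (SE) in Per1KO (edgeR adjusted p = 0.0753) and 0.36 ± 0.15 in Per2KO (edgeR adjusted p = 0.124), neither of which passed.

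For each Serf2 count there were 0.309, 0.407 and 0.403 Fam221b counts in WT on days 0, 3 and 5, and 0.998 to 1.44 in the 6 knockout libraries. The ratio carries the contrast that chose Fam221b and is given as a description. Across libraries the log2 levels of Fam221b and Serf2 had a Pearson r of 0.700 over all 9 and 0.897 over the 6 knockout libraries; this is a description, since the points share libraries and depth. How the authors' counting placed reads that match several genes is not given in the sources used here, and the part of Serf2 reads in the Fam221b counts was not tested.

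**Figure D2:**
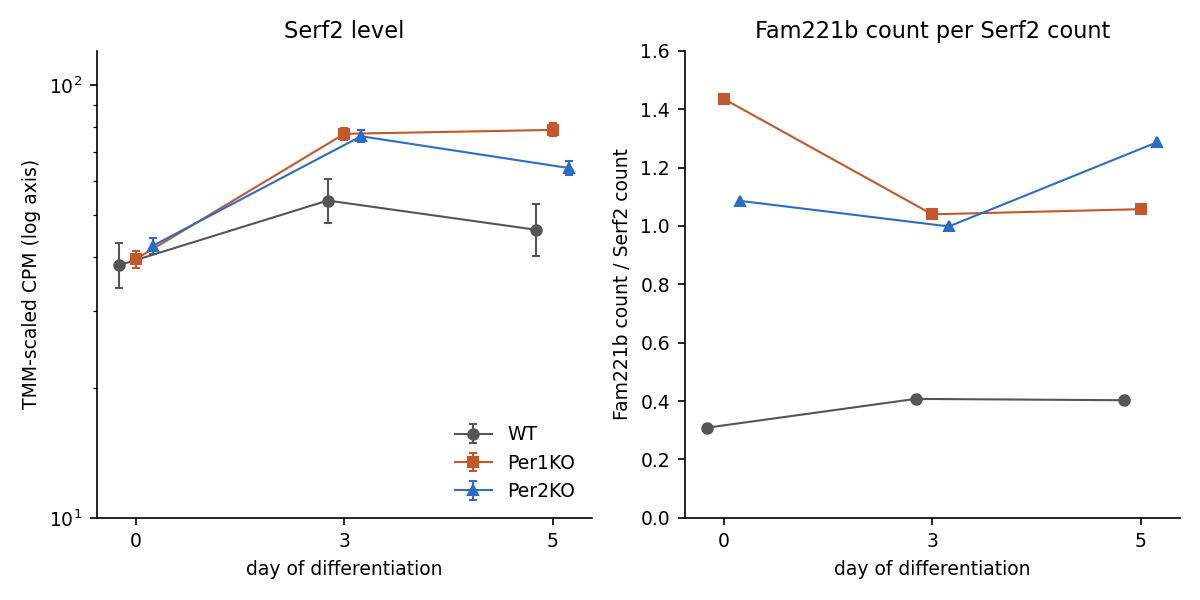
Left, Serf2 level in TMM-scaled CPM (log axis) by day of differentiation, 1 point a library with 95% counting intervals; right, Fam221b counts per Serf2 count in the same libraries. The WT ratios lie between 0.309 and 0.407 and the knockout ratios between 0.998 and 1.44.

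Slc24a3 had the largest fitted difference of the 3 genes between knockouts and WT. In WT it had 31, 32 and 52 counts on days 0, 3 and 5, or 4.37, 5.83 and 11.4 CPM with 95% Clopper-Pearson intervals of 2.97 to 6.20, 3.99 to 8.23 and 8.52 to 15.0. In Per1KO it had 815, 4311 and 4015 counts, or 16.5, 89.1 and 96.3 CPM. In Per2KO it had 1185, 4382 and 4438 counts, or 23.3, 90.6 and 107.9 CPM. The exchanger's knockout libraries split into low values on day 0 and high values on days 3 and 5, and every one of them lay above every WT library, the lowest by 1.45-fold over the highest. All CPM values use library totals scaled by TMM (trimmed mean of M values). Intervals count each read as a molecule, which reads with no molecular identifier need not be, and so cover counting error only.

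Sned1, the matrix gene, had the fewest counts behind its values in WT. In WT it had 24, 12 and 25 counts, or 3.38, 2.19 and 5.49 CPM with intervals of 2.17 to 5.04, 1.13 to 3.82 and 3.55 to 8.10. In Per1KO it had 540, 644 and 1394 counts, or 10.9, 13.3 and 33.4 CPM. In Per2KO it had 466, 680 and 1140 counts, or 9.16, 14.1 and 27.7 CPM. In both knockouts day 0 was lowest, day 3 a little higher and day 5 well above both, and the lowest knockout library was 1.67 times the highest WT library.

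Fam221b showed the most even gap over the 3 days. In WT it had 84, 121 and 85 counts, or 11.8, 22.0 and 18.6 CPM with intervals of 9.45 to 14.7, 18.3 to 26.3 and 14.9 to 23.1. In Per1KO it had 2807, 3879 and 3471 counts, or 56.8, 80.2 and 83.3 CPM. In Per2KO it had 2347, 3677 and 3400 counts, or 46.1, 76.0 and 82.7 CPM. Days 3 and 5 were alike and day 0 lower in both knockouts, and the lowest knockout library was 2.09 times the highest WT library.

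**Figure D3:**
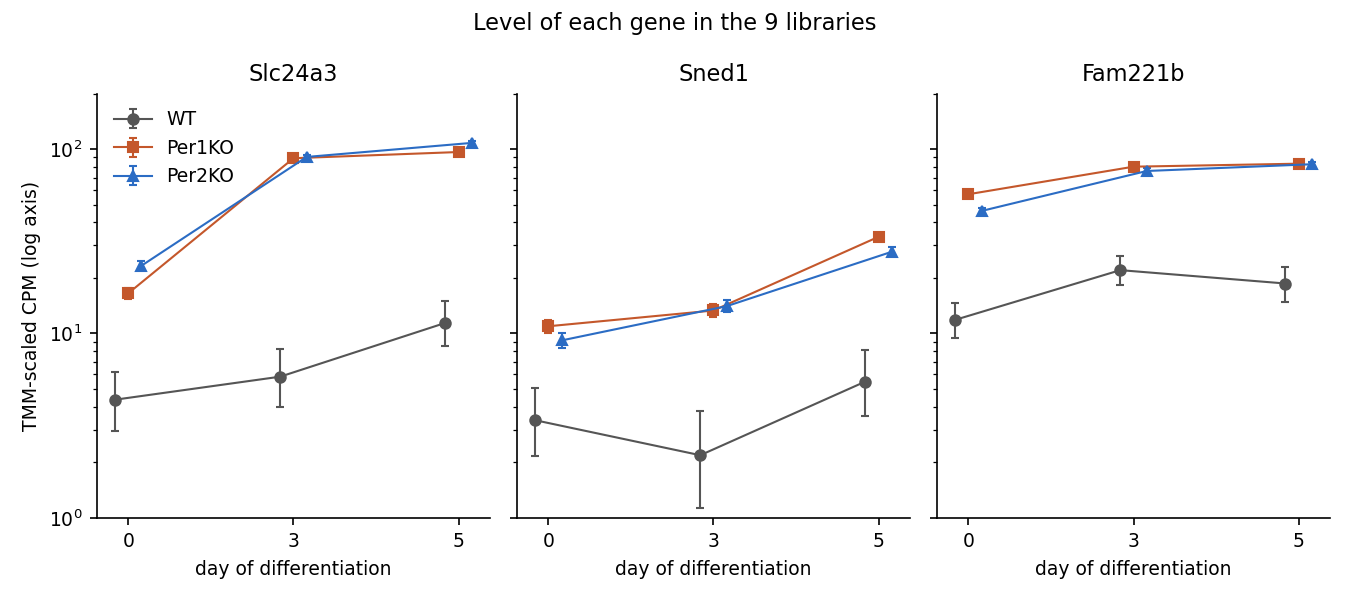
Level of each gene in TMM-scaled CPM (log axis) against day of differentiation, 1 point for each of the 9 libraries with its 95% counting interval. For each gene the 6 knockout points lie above the 3 WT points; Slc24a3 climbs between days 0 and 3 in the knockouts, Sned1 between days 3 and 5.

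Per kilobase of the longest transcript, Fam221b was highest in WT at 3.03 to 5.63 CPM, Slc24a3 next at 1.08 to 2.82 and Sned1 lowest at 0.239 to 0.600. The 3 WT ranges did not overlap, and per kilobase of its coding transcript Fam221b was higher still, at 5.79 to 10.8. In the knockouts Slc24a3 ranged from 4.08 to 26.7 and Fam221b from 11.8 to 21.3 CPM per kilobase, which overlap, while Sned1 at 1.00 to 3.66 lay below both. In log2 CPM over the 6 knockout libraries, Slc24a3 and Fam221b had a Pearson r of 0.914, Sned1 and Fam221b 0.779 and Slc24a3 and Sned1 0.727, a description of libraries that share days and depth.

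The folds over the WT library of the same day describe the choice of the genes. Slc24a3 stood 3.78-fold over WT in Per1KO on day 0 (95% counting interval 2.64 to 5.59), 15.3-fold on day 3 (10.8 to 22.4) and 8.44-fold on day 5 (6.42 to 11.3). In Per2KO its folds were 5.33 (3.73 to 7.88), 15.5 (11.0 to 22.8) and 9.46 (7.20 to 12.7). The exchanger's gap was larger on both later days than on day 0 in each knockout, with intervals that did not overlap except those of Per2KO on days 0 and 5. Both knockouts were set against the same WT libraries, and the intervals cover counting error only. The interaction term given below did not pass in the main fit (edgeR adjusted p = 0.115). The fitted log2 difference over the 3 days was 3.01 ± 0.32 (SE) in Per1KO and 3.22 ± 0.32 in Per2KO.

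Sned1 stood 3.23-fold (2.15 to 5.09), 6.09-fold (3.46 to 11.9) and 6.10-fold (4.11 to 9.45) over WT in Per1KO on days 0, 3 and 5. In Per2KO the folds of this matrix gene were 2.71 (1.80 to 4.27), 6.43 (3.66 to 12.5) and 5.06 (3.41 to 7.84). Its intervals were wide, most of all on day 3, where WT had 12 counts. The fitted log2 differences were 2.27 ± 0.24 in Per1KO and 2.12 ± 0.24 in Per2KO.

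Fam221b stood 4.80-fold (3.86 to 6.04), 3.64-fold (3.04 to 4.40) and 4.46-fold (3.60 to 5.60) over WT in Per1KO. In Per2KO its folds were 3.89 (3.13 to 4.90), 3.45 (2.88 to 4.17) and 4.43 (3.58 to 5.57). The interval of each day overlapped those of the other days in each knockout. The fitted log2 differences were 2.09 ± 0.13 in Per1KO and 1.96 ± 0.13 in Per2KO.

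**Figure D4:**
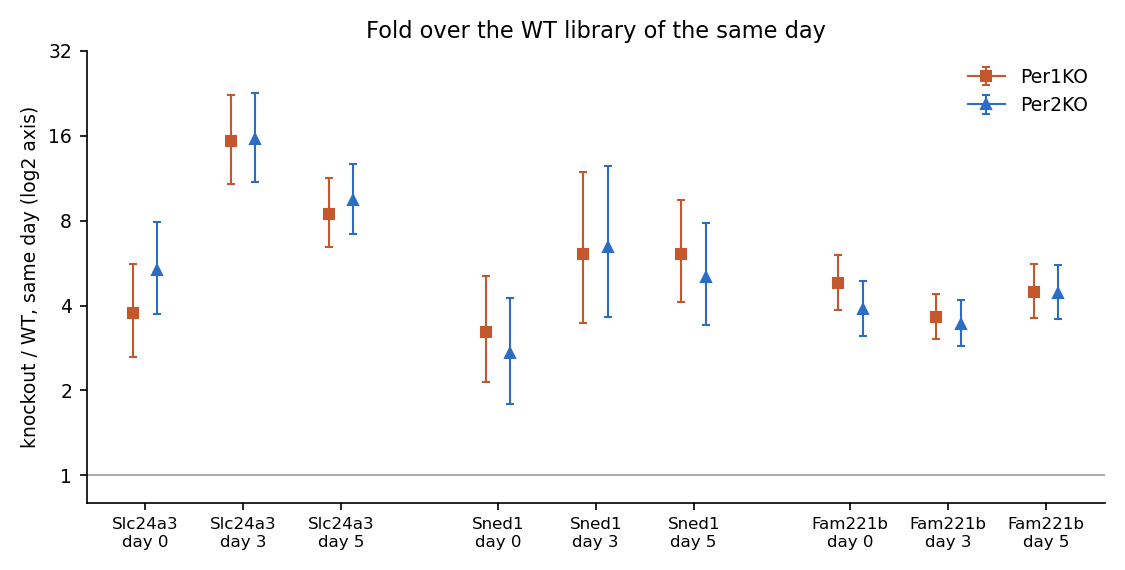
Fold of each knockout library over the WT library of the same day (log2 axis), with 95% intervals of the count ratio. All 18 folds lie above 1; those of Slc24a3 run from 3.78 to 15.5, of Sned1 from 2.71 to 6.43 and of Fam221b from 3.45 to 4.80.

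Of the 13324 genes tested, 19.9% were above WT in both knockouts on all 3 days, 9.26% were called higher in Per1KO by the fit and 9.31% in Per2KO; these shares are given as background to a contrast that chose the genes. Ranked by the smallest of the 6 log2 differences from WT, Slc24a3 (1.90), Fam221b (1.78) and Sned1 (1.42) held ranks 232, 252 and 319 of 13324. Among the 10440 protein-coding genes sharing under 10% of their words on their own strand, of which 1525 were above WT throughout, they held ranks 10, 13 and 20. The rule set no minimum size for the difference.

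Differentiation was a comparison the rule did not use. Slc24a3 and Fam221b rose from day 0 to day 3, and all 3 genes rose from day 0 to day 5, with the 3 populations standing in for replicates of a day. Between days 3 and 5 only Sned1 passed the test.

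Slc24a3 rose by a log2 change of 1.86 ± 0.30 (SE) from day 0 to day 3 (edgeR adjusted p = 0.00283), higher in 3 of 3 populations. Over all genes tested, 18.1% were called higher on day 3. Within populations the exchanger was 1.33-fold higher in WT (0.788 to 2.26), where the interval includes no change, 5.40-fold in Per1KO and 3.89-fold in Per2KO. From day 0 to day 5 its log2 change was 2.18 ± 0.30 (edgeR adjusted p = 8.42e-04), and it was 2.61-fold higher in WT, 5.84-fold in Per1KO and 4.63-fold in Per2KO. From day 3 to day 5 the log2 change was 0.32 ± 0.27 (edgeR adjusted p = 0.648). The day 3 call was lost without Per1KO (1.40, edgeR adjusted p = 0.0661) and without Per2KO (1.72, edgeR adjusted p = 0.0621).

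Sned1 had a log2 change of 0.27 ± 0.22 from day 0 to day 3 (edgeR adjusted p = 0.368), at 0.646-fold in WT (0.294 to 1.34), 1.22-fold in Per1KO and 1.53-fold in Per2KO. From day 0 to day 5 it rose by 1.43 ± 0.22 (edgeR adjusted p = 0.00135), a direction called for 23.2% of all genes, and it was 1.62-fold higher in WT (0.888 to 2.96), 3.06-fold in Per1KO and 3.03-fold in Per2KO. From day 3 to day 5 it rose by 1.16 ± 0.21 (edgeR adjusted p = 0.0421), a direction called for 0.698% of all genes. The matrix gene was 2.51-fold higher on day 5 than on day 3 in WT and in Per1KO and 1.97-fold higher in Per2KO. The day 5 against day 3 call was lost without Per1KO (1.06, edgeR adjusted p = 0.652) and without Per2KO (1.30, edgeR adjusted p = 0.277), fits in which no gene was called. The day 5 against day 0 call was lost without Per1KO (1.24, edgeR adjusted p = 0.0513), and without WT the day 3 change passed (0.45, edgeR adjusted p = 0.0220). Without Per2KO the day 3 change was -0.04 (edgeR adjusted p = 0.962).

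Fam221b rose by a log2 change of 0.69 ± 0.13 from day 0 to day 3 (edgeR adjusted p = 0.00511) and by 0.68 ± 0.13 from day 0 to day 5 (edgeR adjusted p = 0.00331). Its day 3 level was 1.86-fold that of day 0 in WT, 1.41-fold in Per1KO and 1.65-fold in Per2KO, and its day 5 level 1.57-fold, 1.46-fold and 1.79-fold. Both rises were thus seen in 3 of 3 populations and were smaller than those of Slc24a3 in the knockouts. Between days 3 and 5 the fitted difference was -0.0018 ± 0.12 (edgeR adjusted p = 0.998). Without Per1KO the day 3 call was lost (0.80, edgeR adjusted p = 0.0625), and without Per2KO both the day 3 call (0.68, edgeR adjusted p = 0.0829) and the day 5 call (0.59, edgeR adjusted p = 0.0813) were.

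Whether the change on differentiation differed between WT and the knockouts was tested as 1 interaction term, days 3 and 5 against day 0. The term sets the gap to WT on the later days against the gap on day 0. The genes were chosen for gaps above 0 on each day, so the term is not independent of that choice. The rule did not ask which day had the larger gap. Slc24a3 had the largest term of the 3 genes, 1.34 ± 0.42 on the log2 scale (edgeR adjusted p = 0.115), in the direction of a larger rise in the knockouts. Sned1 had 0.98 ± 0.35 (edgeR adjusted p = 0.150) and Fam221b -0.13 ± 0.24 (edgeR adjusted p = 0.776). None of the 3 passed, beside 3.5% of all genes that were called as rising more in the knockouts. The Slc24a3 term passed with DESeq2 (1.33, adjusted p = 0.0304) and without the day 5 libraries (1.78, edgeR adjusted p = 0.0170).

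The knockouts were then compared with each other, a difference that the rule did not use. Per1KO minus Per2KO was -0.21 ± 0.26 (SE, log2) for Slc24a3, 0.15 ± 0.19 for Sned1 and 0.13 ± 0.12 for Fam221b, each at an edgeR adjusted p of 1.00. By edgeR, 0% of the genes were called between the knockouts, with 88 at an unadjusted p under 0.05, and DESeq2 called 1. On day 0 the ratio of Per1KO to Per2KO was 0.709 (counting interval 0.647 to 0.775) for Slc24a3, 1.19 (1.05 to 1.35) for Sned1 and 1.23 (1.17 to 1.30) for Fam221b. The same 3 ratios came to 0.984, 0.947 and 1.06 on day 3 and to 0.892, 1.21 and 1.01 on day 5. The exchanger was thus the lower in Per1KO on every day, and Fam221b the higher, by amounts that the spread between days did not separate from 0.

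Of the 12 tested genes that overlap or neighbour the 3, Naa20 was called in both knockouts and the other 11 in neither, beside 8.05% of all genes tested that were called higher in both and 8.75% lower in both. To the right of Slc24a3, Rin2, an exchange factor for a Rab protein, differed from WT by a log2 of -0.24 in Per1KO (edgeR adjusted p = 0.467) and -0.32 in Per2KO (edgeR adjusted p = 0.337). Naa20, the catalytic subunit of an N-terminal acetyltransferase, was called higher in both, by 0.96 ± 0.13 (edgeR adjusted p = 0.00217) and 0.84 ± 0.13 (edgeR adjusted p = 0.00402). Crnkl1, Dtd1 and Smim26 were not called in either knockout, with log2 differences of 0.22 to 0.40, and Scp2d1 was at 0. Beside Sned1, Pask and Ppp1r7 were not called (0.13 to 0.18), and Agxt, Crocc2, Ano7 and 2310007B03Rik were too low to test.

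Tmem8b, which overlaps the start of Fam221b by 175 bases on the opposite strand, ranged from 2.68 to 12.7 CPM in WT and 1.81 to 12.2 CPM in the knockouts. Its log2 differences were -0.16 in Per1KO (edgeR adjusted p = 0.570) and -0.15 in Per2KO (edgeR adjusted p = 0.676). Npr2, a natriuretic peptide receptor, and Hint2, a mitochondrial hydrolase, lay between -0.41 and -0.15, and Hrct1 at 0.78 and 0.75 on under 4 CPM. None of the 4 was called, and Spag8, Olfr70 and Olfr71 were too low to test.

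**Figure D5:**
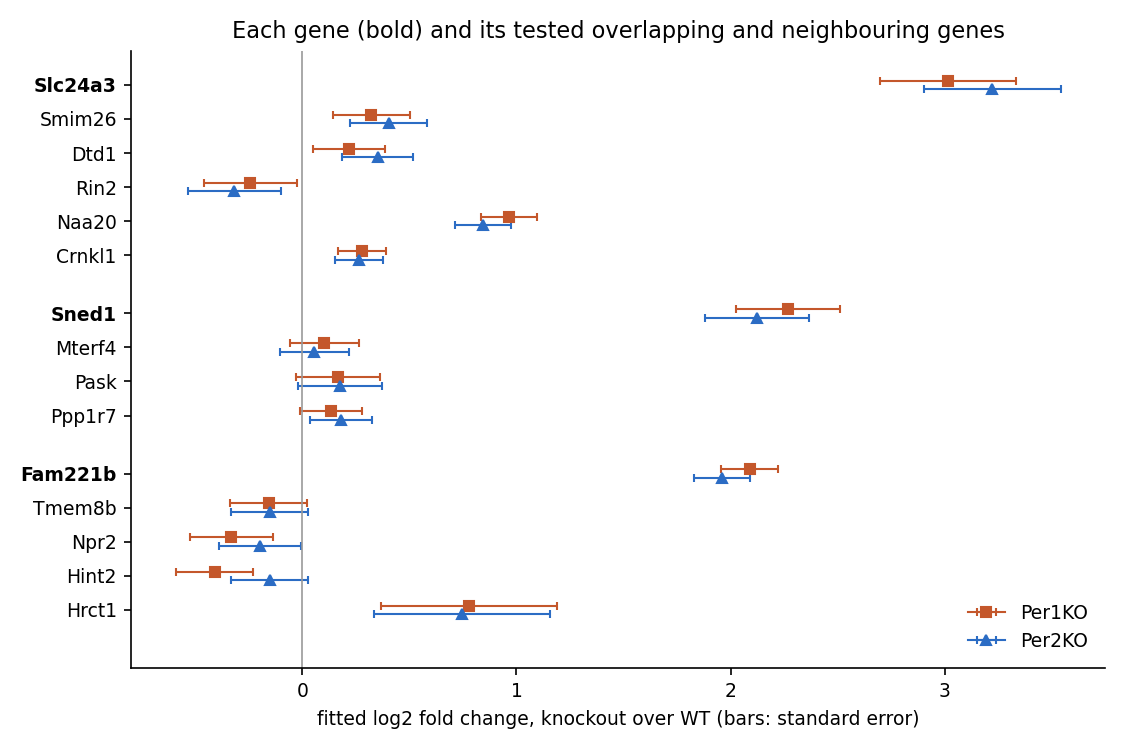
Fitted log2 difference of each knockout from WT, with its standard error, for the 3 genes (bold) and the tested genes that overlap or neighbour them. The 3 genes lie between 1.96 and 3.22, Naa20 at 0.84 and 0.96, and every other gene at or below 0.78.

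The genes whose log2 CPM ran most like each of the 3 over the 9 libraries were taken from 9491 protein-coding genes sharing under 10% of their words on either strand. For Slc24a3 they included Itch, a ubiquitin ligase (Pearson r = 0.981), and Arfgef1, an exchange factor for ARF proteins (0.980). Itch ran from 84.9 to 93.2 CPM in WT, 107.1 to 112.2 in the knockouts on day 0 and 129.3 to 140.8 on days 3 and 5, so its libraries fell into 3 bands in the same order as those of Slc24a3. For Sned1 they were Oxr1 (0.986), Dmxl2 (0.981) and Arhgap44 (0.971), each lowest in WT on day 3 as Sned1 was. For Fam221b they were Ndufb2, a subunit of respiratory complex I (0.991), Phf24 (0.985) and Ube2d3, a ubiquitin-conjugating enzyme (0.979). These genes were picked for their pattern, which includes the gap to WT, and not for the size of that gap. Itch stood 0.46 and 0.54 above WT in log2, Ndufb2 1.47 and 1.40 and Phf24 2.13 and 2.06. These correlations are descriptions, since WT and knockout libraries differ in depth and in the suffix of their titles as well as in genotype.

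The upstream sequence of Slc24a3 and Sned1 is shown because Per1 and Per2 act on clock factors that bind short promoter motifs. Sequences come from the RefSeq promoter table of build GRCm38.p6, are written 5′ to 3′ on the forward strand, and stop just before the first annotated transcribed base (chr2:145167525-145167753 and chr1:93235647-93235840). Capitals mark AGGTCA, the core of ROR and NR1D (REV-ERB) elements, and GGGCGG, the GC box, on either strand; CCGCCC is the GC box on the reverse strand.

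Slc24a3: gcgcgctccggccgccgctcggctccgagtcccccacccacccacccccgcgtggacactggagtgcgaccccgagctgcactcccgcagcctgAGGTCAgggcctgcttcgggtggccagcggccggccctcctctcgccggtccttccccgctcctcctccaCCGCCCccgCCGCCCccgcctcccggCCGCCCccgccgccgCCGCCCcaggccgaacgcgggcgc
Sned1: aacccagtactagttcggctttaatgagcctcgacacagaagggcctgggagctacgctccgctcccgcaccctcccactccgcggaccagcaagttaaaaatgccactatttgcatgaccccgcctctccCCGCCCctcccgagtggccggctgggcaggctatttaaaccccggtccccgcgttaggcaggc

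The 300-base windows searched run from 250 bases before to 50 after the RefSeq start, 2 for Slc24a3 and 1 each for Sned1 and Fam221b, among 32851 windows in the table. The clock E-box CACGTG, found in 7.15% of all windows, the E-box CAGCTG (16.3%), the general E-box CANNTG, which includes both (72.3%), and the D-box TTANGTAA (2.32%) were found in none of the 4. AGGTCA (16.3% of windows) occurred 1 time, in the first window of Slc24a3 at -156, and GGGCGG (35.7%) occurred 4 times in that window and 1 time in that of Sned1, at -119. These positions are counted from the RefSeq start, which lies beyond the end of each sequence shown. The window of Fam221b held none of the motifs searched; it lies inside annotated transcripts and is not shown. The first Slc24a3 window is 80.7% G and C with 43 CpG sites and the Sned1 window 64.3% with 29, beside medians of 52.7% and 7 over all windows. A match describes letters, not a bound site.

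Other genes of the same pathways were counted from lists. Of 17 further calcium exchangers and pumps listed, 8 were tested; 0 were called higher in either knockout, 3 lower in Per1KO and 2 lower in Per2KO. Over all genes tested, 9.26% were called higher and 10.1% lower in Per1KO, and 9.31% and 10.6% in Per2KO, so that a count of 0 higher among 8 is near the background. The median log2 difference of the 8 was -0.50 in Per1KO and -0.45 in Per2KO, beside -0.02 and -0.01 for all genes tested. Atp2b4, a calcium pump of the plasma membrane, fell by 1.29 in Per1KO (edgeR adjusted p = 0.00465) and by 1.33 in Per2KO (edgeR adjusted p = 0.00394). Atp2a1, the calcium pump of fast muscle, fell by 1.70 (edgeR adjusted p = 0.0493) and by 2.0 (edgeR adjusted p = 0.0284), and Atp2a3 passed in Per1KO alone (-3.80, edgeR adjusted p = 0.0293) and not in Per2KO (-1.93, edgeR adjusted p = 0.178); the difference between knockouts was not called.

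Atp2a2, the widely expressed reticulum pump, stood at 0.40 and 0.27, Atp2b1 of the plasma membrane at 0.39 and 0.44 and the mitochondrial exchanger Slc8b1 at 0.19 and 0.21, none of them called. The sodium-calcium exchanger Slc8a1 stood at -0.72 and -0.58, also not called. The other family members of Slc24a3, Slc24a1, Slc24a2, Slc24a4 and Slc24a5, stayed at or under 0.546 CPM in every library and were not tested. With differentiation, 4 of the 8 rose by day 3, 3 rose by day 5 and 0 fell, beside 18.1% and 23.2% of all genes that rose and 16.9% and 22.9% that fell; Atp2a1 rose by 5.99 by day 5 (edgeR adjusted p = 1.82e-04). The fitted differences of Atp2a1 and Atp2b4 from WT were opposite in sign to that of Slc24a3, which was chosen for being higher. Atp2a1 ranged from 45.1 to 931 CPM in WT and from 4.11 to 625 CPM in the knockouts, which overlap. By day 5 both Slc24a3 and Atp2a1 rose, and a relation between these genes was not tested.

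Of 31 matrix glycoproteins listed beside Sned1, most for a domain type in common, 25 were tested; 0 were called higher in either knockout, 7 lower in Per1KO and 6 lower in Per2KO, with medians of -0.75 and -0.70. Of all genes tested, 9.26% and 9.31% were called higher and 10.1% and 10.6% lower. Called lower in both were Postn (-2.51 and -2.68, edgeR adjusted p = 0.00337 and 0.00240), Tnr (-3.89 and -3.70), Ltbp2 (-1.04 and -1.33), Matn2 (-0.86 and -0.66) and Ltbp3 (-0.65 and -0.70). Tnr ranged from 0 to 19.5 CPM in WT and from 0 to 1.07 CPM in the knockouts, so its difference was not seen in every library. Postn encodes periostin, which has fasciclin domains and not the sushi, nidogen or EGF-like type, and Ltbp2 and Ltbp3 encode proteins of the latent TGF-beta binding family. Of the most abundant per length, Fn1, which encodes fibronectin, stood at -0.75 and -0.72, Thbs1 at 0.18 and 0.01, Npnt at -0.07 and -0.35 and Nid1 at 0.06 and -0.06, none of them called. On day 5, 11 of the 25 were called higher and 5 lower than on day 0, beside 23.2% and 22.9% of all genes. On day 3 these counts were 8 and 4, beside 18.1% and 16.9%.

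Of 13 integrin subunits, which form receptors for the matrix, 10 were tested; 0 were called higher and 3 lower in each knockout, with medians of -0.30 and -0.27. With 9.26% and 9.31% of all genes called higher and 10.1% and 10.6% lower, 0 higher among 10 is near the background. The 3 were the same in both: Itga4 (-1.81 and -1.82), Itgb3 (-1.08 and -1.20) and Itga5 (-0.46 and -0.48), with edgeR adjusted p values of 0.00241 to 0.0269 in Per1KO and 0.00147 to 0.0228 in Per2KO. Itga7, the laminin receptor subunit of muscle, stood at -0.17 and -0.22, Itgb1 at 0.10 and 0.07 and Itgb5 at -0.43 and -0.32, not called. Fam221a, the other member of its family, stood at 0.29 and -0.04, not called, at 0.219 to 2.54 CPM in WT and 1.26 to 2.94 CPM in the knockouts. Fam221a fell by 1.08 from day 0 to day 5 (edgeR adjusted p = 0.0385), where Fam221b rose. This direction was called for 22.9% of all genes. The lowest WT level of Fam221a, 0.219 CPM, was under 3 counts, which make 0.423 CPM in the deepest WT library and 0.658 CPM in the shallowest. The fall of Fam221a thus draws on a WT value near the floor.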

How the data were processed

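The authors deposited a table of raw counts by Ensembl identifier, which was used unchanged. Per the submitters' processing notes, CASAVA 1.8 and HISAT2 2.1.0 were used with genome build mm10. The counting program, annotation, strand setting and treatment of reads with several matches are not given in the sources used here. Per the labels' protocols, polyadenylated RNA was made into libraries with a TruSeq kit that does not mark strand and sequenced as single reads. Of 47729 genes, 47224 matched GENCODE M21 (GRCm38), which gave symbols, positions and transcripts; the other 505 held at most 0.0328% of any library's counts.

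Genes were tested where 3 or more of the 9 libraries reached 1 CPM. Library sizes were scaled by TMM, and edgeR 4.0.16 (limma 3.58.1, R 4.3.3) fitted genotype and day additively, with 4 residual degrees of freedom, or with 1 knockout-by-late-day term, with 3. The quasi-likelihood test was robust, with Benjamini-Hochberg adjustment over all 13324 genes and a threshold of 0.05; the procedure was tested on simulated data. Each group has 1 library, so p-values measure the spread between these populations and days and not between independent clones. Log2 CPM used a prior count of 2. Fold intervals are exact 95% intervals of the count ratio.

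Shared sequence is the share of a longest transcript's 31-base words found in another gene's longest transcript. Named genes are the 3 chosen genes; in each list the 4 most abundant tested genes per kilobase and those called in both knockouts; for each chosen gene the 3 genes most correlated with it (1 of them is not reported here), the 3 nearest protein-coding genes on each side and any overlapping gene. Atp2a3, Slc8a1, the low Slc24a genes and Fam221b's ratio to Serf2 were added after their values were seen. The chosen genes and all lists were picked with earlier results of these data known. Alternatives were DESeq2 1.42.0, other scaling, filters and prior counts, and leaving out a population or a day.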

Additional observations from a re-analysis of the deposited data

Results flagged for a closer look

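Sned1 moved in opposite directions from day 0 to day 3: its log2 CPM change was -0.631 in WT and 0.28 and 0.62 in Per1KO and Per2KO. The WT change rests on 24 and 12 counts, and its interval of 0.294-fold to 1.34-fold includes no change. This difference at day 3 was not tested on its own; the term for both later days together gave an edgeR adjusted p of 0.150.

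Fam221b moved in opposite directions from day 3 to day 5, by -0.241 in WT and by 0.05 and 0.12 in Per1KO and Per2KO. The WT interval of 0.634-fold to 1.13-fold includes no change, and so does that of Per1KO at 0.991-fold to 1.09-fold. This difference was not tested.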

How the results depend on the processing

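Of 160 values under alternatives, 128 kept their direction and their side of the threshold, or for counts stayed within 1.5 times. The 128 include each gene's smallest single-library difference from WT, under other scaling and prior counts. Those differences had no threshold and stayed within counting error. Their sign was set by the choice of the genes, so they are no check on it. Of the rest, 15 counts of called genes moved by over 1.5 times, 8 calls were lost, 3 were gained and 6 changed sign, none of which was called either way. The 6 were Fam221b between days 3 and 5 (-0.0018) with relative log expression factors (0.0047), with DESeq2 (0.018), with a minimum of 5 CPM (0.0048) and without WT (0.089), Sned1 on day 3 without Per2KO (-0.035) and the Fam221b interaction without day 3 (0.033). Leaving out a population gave the losses. Without Per1KO the log2 changes were 1.40 for Slc24a3 and 0.80 for Fam221b (day 3 against day 0), 1.24 for Sned1 (day 5 against day 0) and 1.06 for Sned1 (day 5 against day 3). Without Per2KO they were 1.72 for Slc24a3 and 0.68 for Fam221b (day 3), 0.59 for Fam221b (day 5) and 1.30 for Sned1 (day 5 against day 3). Calls were gained for Sned1 on day 3 without WT (0.45) and for the Slc24a3 interaction with DESeq2 (1.33) and without day 5 (1.78). Genes called between days 0 and 3 numbered 4664, but 7684 without WT, 1147 without Per1KO and 1440 without Per2KO; between days 0 and 5, 6149, but 2348 without Per1KO and 2993 without Per2KO. Between days 3 and 5 they numbered 238, but 733 with DESeq2, 370 without a filter, 1393 without WT and 0 without Per1KO or Per2KO. For the interaction they numbered 659, but 1464 with DESeq2, 219 without Per2KO and 1797 without day 5; for Per1KO against Per2KO, 0, but 1 with DESeq2 and 1 without a filter. Fits without a population rest on fewer samples; otherwise the cause was not tested. The median log2 difference of all genes between knockouts and WT was 0.00181 with TMM, 0.00447 with relative log expression factors and 0.0739 with library totals. The additive fit matches libraries by day; no replicate numbers are given in the labels for a further block. WT depth limits all folds: the smallest WT count behind one was 12.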
